A study of Mus musculus with 12 samples.

Results

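Hoxb5os, Hoxb6, Hoxb5 and Hoxb3 are neighbours in the Hoxb cluster on mouse chromosome 11, and each is described here from a single probe on the arrays of this study. Hoxb5os is a long non-coding RNA (lncRNA), and the other 3 are protein-coding mRNAs. The probes ASMM10LNC1A100047146V4 (Hoxb5os), ASMM10AP1B105896949V4 (Hoxb6), ASMM10AP1B108011857V4 (Hoxb5) and ASMM10AP1B100201596V4 (Hoxb3) were selected by these identifiers out of 60641 probes, and all 4 were among the 54505 probes bright enough to be tested. The study's tables of antisense lncRNA and mRNA pairs list the 4 transcripts as changed with POVPC, so the selection rests on measured values. Hoxb5os and Hoxb6 were listed for siNT cells, and Hoxb5os, Hoxb5 and Hoxb3 for siOCT4 cells.

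Primary mouse aortic smooth muscle cells (SMC) kept without serum received an siRNA for 48 h and then POVPC or its solvent for 24 h. The non-target siRNA (siNT, a pool) or an siRNA against Oct4 (siOCT4) was combined with 10 µg/mL POVPC or with DMSO. The 4 groups, of 3 arrays each, are siNT-DMSO and siNT-POVPC with the non-target siRNA, and siOCT4-DMSO and siOCT4-POVPC with the knockdown. Total RNA was labelled by random priming along the whole transcript and hybridised in a single colour to Arraystar lncRNA/mRNA arrays. The design asks what POVPC does in cells with and without the knockdown, and what the knockdown does with and without POVPC. The knockdown is transient, and all cells are SMC in culture, so the groups model a short response in a dish. The labels number the 3 samples of a group without saying that they came from separate cultures or animals, so p-values measure the spread between these samples, which may be technical.

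Hox genes code for homeodomain transcription factors that give cells their position along the body axis, and the genes of a cluster lie on the chromosome in the order in which they act along that axis. Adult vascular SMC keep parts of this pattern from the embryo. Antisense lncRNAs such as Hoxb5os are transcribed from the opposite strand within Hox clusters. OCT4 (gene Pou5f1) is a pluripotency transcription factor that SMC can express again in disease, and POVPC is an oxidized phospholipid found in atherosclerotic lesions. In bulk RNA from a culture, fewer cells that express a gene and less of its RNA per cell cannot be told apart.

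The transcripts lay close together or far apart within the cluster as follows, in the coordinates of the study's tables, which were on build GRCm38. The Hoxb5os transcript ENSMUST00000140952 spans chr11:96293497-96305081 on the minus strand. The Hoxb6 transcript ENSMUST00000000704 spans chr11:96299171-96301568 on the plus strand, and all 2398 of its bases lie within the span of Hoxb5os. Hoxb5, transcript ENSMUST00000049272, spans chr11:96303512-96306120 on the plus strand and shares 1570 bases with the span of Hoxb5os. The Hoxb3 transcript ENSMUST00000055334, at chr11:96343769-96346507 on the plus strand, begins 37.6 kb past the end of Hoxb5 and lies within the span of a second antisense lncRNA, Hoxb3os (ENSMUST00000147410, chr11:96343072-96354691, minus strand). RefSeq gives Hoxb3 a much longer gene span, chr11:96307101-96347930, which starts just beyond Hoxb5 and also encloses Hoxb4 and Mir10a, the gene of a microRNA. Hoxb3os was not selected and is described beside the 4 members for its place in the cluster. In the RefSeq order Hoxb9, Hoxb8, Hoxb7, Hoxb6, Hoxb5, Hoxb4, Hoxb3, Hoxb2, Hoxb1, the 3 coding members stand in the middle.

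**Figure D1:**
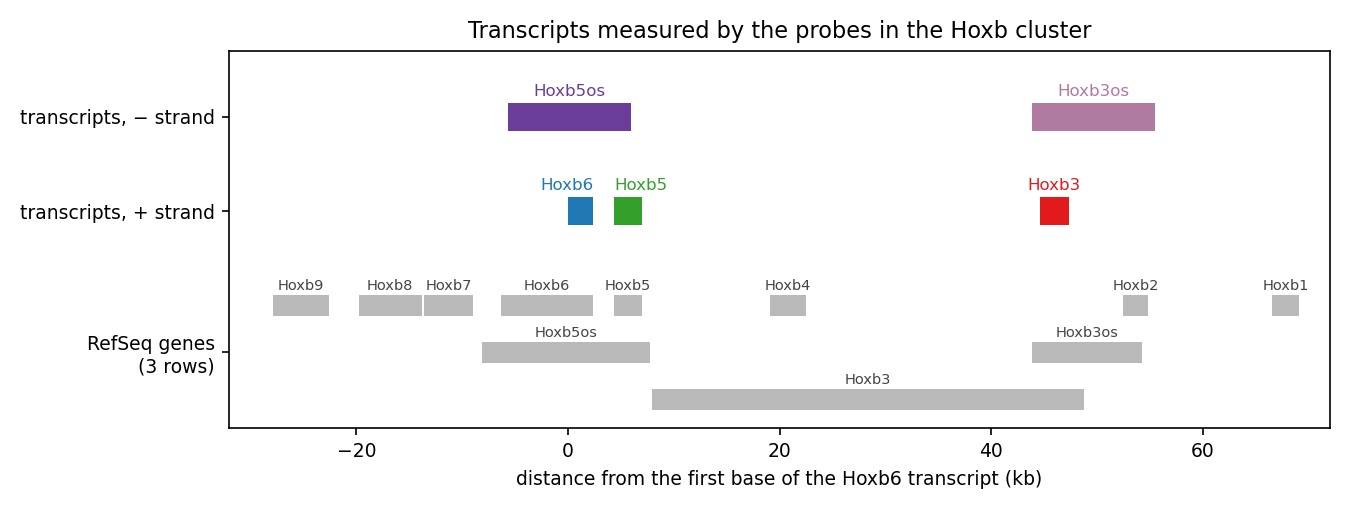
Map of the Hoxb cluster with distance in kb from the first base of the Hoxb6 transcript on the x axis. Coloured bars are the transcripts of the study's tables by strand, and grey bars are RefSeq genes. Hoxb6 lies inside the span of Hoxb5os, Hoxb5 overlaps its right edge, and Hoxb3 lies 37.6 kb beyond Hoxb5 inside the span of Hoxb3os.

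The probe sequences show what was read for a coding and an antisense transcript. The 60-base probe of Hoxb6 was printed from the study's tables, 58.3% of its bases are G or C, and it reads 5′ to 3′ as follows.

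Hoxb6: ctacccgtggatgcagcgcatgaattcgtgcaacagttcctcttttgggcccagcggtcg

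The 60-base probe of Hoxb3os, in capitals, was found in the window around the RefSeq start of Hoxb3os, at chr11:96353443-96353502 on the minus strand of GRCm38.p6. It lies 49 bases upstream of that start, within the tables' longer Hoxb3os transcript and within the RefSeq span of Hoxb2 (chr11:96351632-96354020). The window is chr11:96353345-96353644, written along the minus strand.

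Hoxb3os: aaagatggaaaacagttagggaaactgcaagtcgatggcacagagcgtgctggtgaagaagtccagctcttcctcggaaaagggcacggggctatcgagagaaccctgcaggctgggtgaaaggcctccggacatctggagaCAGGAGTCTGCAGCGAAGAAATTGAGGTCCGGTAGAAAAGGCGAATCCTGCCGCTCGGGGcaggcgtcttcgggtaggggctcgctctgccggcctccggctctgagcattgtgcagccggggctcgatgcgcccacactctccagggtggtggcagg

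Levels below are log2 of the background-subtracted signal after quantile normalization over the 12 arrays, so a difference of 1 is a 2-fold difference. Each group is given as mean ± SD (n = 3). Levels of different probes are not compared with each other. The scanner software placed 49015 to 55326 probes of an array well above background, and none was saturated. The number of arrays limits the precision. Slide 1 held 8 arrays (both siNT groups and siOCT4-DMSO replicates 1 and 2), and slide 2, scanned separately, held 4 arrays (siOCT4-DMSO replicate 3 and the siOCT4-POVPC group). Any comparison with siOCT4-POVPC therefore runs partly or wholly between slides. The level of Oct4 itself could not be read, since no named probe was found for Pou5f1. Of 8 markers of contractile SMC, 2 had a named probe: Smtn (smoothelin) was well above background on 12 of 12 arrays and Tagln (SM22-alpha) on 11 of 12.

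Hoxb5os was higher on every POVPC array than on every DMSO array of the same siRNA. Its levels in siNT-DMSO were 5.37, 3.33 and 4.35 (4.35 ± 1.02), and replicate 2, the lowest, was not well above background. In siNT-POVPC they were 6.45, 6.26 and 6.0 (6.23 ± 0.22). These groups did not overlap, and the POVPC arrays were closer together than the DMSO arrays. In siOCT4-DMSO the levels were 5.83, 4.38 and 5.31 (5.17 ± 0.73), and in siOCT4-POVPC they were 6.58, 6.92 and 6.16 (6.55 ± 0.38). Here too every POVPC array stood above every DMSO array. The order of the means was siNT-DMSO, siOCT4-DMSO, siNT-POVPC, siOCT4-POVPC, and of the neighbours in it only siOCT4-DMSO and siNT-POVPC did not overlap.

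The differences with POVPC chose Hoxb5os and are given as a description. They were 1.88 ± 0.47 (SE) on the log2 scale in siNT cells, a 3.69-fold difference, and 1.38 ± 0.47 in siOCT4 cells, a 2.60-fold difference. The siNT value was 1.37 without siNT-DMSO replicate 2 and 2.39 without siNT-DMSO replicate 1. Of all probes tested, 7.04% were higher without overlap in the siNT comparison and 12.9% in the siOCT4 comparison. On slide 2 alone, with its single siOCT4-DMSO array, the siOCT4 difference was 1.24. With normexp, another background correction that compresses low signals, the differences were 0.72 and 0.62. The members were not chosen for the knockdown, but every knockdown comparison uses arrays that entered their choice, so for all 4 its differences are given with their intervals, as a description without a p. In DMSO, Hoxb5os was 0.82 higher in siOCT4 than in siNT cells (95% confidence interval −0.23 to 1.86), and the groups overlapped. The DMSO value was 0.31 without siNT-DMSO replicate 2, 1.33 without siNT-DMSO replicate 1 and 0.49 without siOCT4-DMSO replicate 1. With POVPC the difference was 0.32 (−0.73 to 1.36), between 0.13 and 0.51 leaving out each array, the extremes being those without siOCT4-POVPC replicates 2 and 3. It was 0.14 with scaling to each array's 75th percentile and 0.11 with the slide as a block.

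Hoxb6, which codes for a homeodomain protein and lies inside the span of Hoxb5os, followed the same order of groups. The levels in siNT-DMSO were 6.06, 5.0 and 5.97 (5.68 ± 0.59), and those in siNT-POVPC were 6.86, 6.80 and 6.66 (6.77 ± 0.10). The POVPC arrays were again tightly grouped and above all DMSO arrays. In siOCT4-DMSO the levels were 6.39, 5.60 and 6.33 (6.11 ± 0.44), against 6.65, 6.98 and 6.77 (6.80 ± 0.17) in siOCT4-POVPC. All 12 arrays were well above background. The means ran from siNT-DMSO through siOCT4-DMSO and siNT-POVPC to siOCT4-POVPC. The last pair in that order differed by 0.03 and overlapped, and so did the first pair.

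In siNT cells, the comparison that chose Hoxb6, the difference with POVPC was 1.09 ± 0.29 (SE), or 2.14-fold, and 0.61 with normexp. It was 0.76 without siNT-DMSO replicate 2 and 1.285 without siNT-DMSO replicate 1. The siOCT4 comparison, in which the tables do not list Hoxb6, was tested. Hoxb6 was 0.70 higher with POVPC (95% interval 0.06 to 1.33) without overlap between the groups. This missed the threshold (adjusted p = 0.3412, limma with Benjamini-Hochberg adjustment over all probes), a miss that was partly fixed beforehand, since the listing used the same arrays. On slide 2 alone the siOCT4 difference was 0.47, and without siOCT4-DMSO replicate 2 it was 0.44. Knockdown gave differences of 0.43 in DMSO (−0.21 to 1.06) and 0.03 with POVPC (−0.60 to 0.67). The DMSO value was 0.09 when siNT-DMSO replicate 2 was left out and was 0.68 without siOCT4-DMSO replicate 2, while the POVPC value changed sign with scaling to each array's 75th percentile (−0.08) and with the slide as a block (−0.31).

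Hoxb5, the coding gene that overlaps the 5′ part of the Hoxb5os span, stood highest in siOCT4-POVPC. Its levels in siNT-DMSO were 4.0, 2.72 and 4.20 (3.64 ± 0.80), with replicate 2 not well above background. In siNT-POVPC they were 5.41, 5.42 and 3.82 (4.88 ± 0.92). Replicate 3 of that group fell within the DMSO range, so the groups overlapped. In siOCT4-DMSO the levels were 5.35, 3.76 and 3.60 (4.24 ± 0.97), and in siOCT4-POVPC they were 5.77, 6.24 and 6.07 (6.03 ± 0.24). The siOCT4-POVPC arrays stood above all 9 others. The first 3 groups in the order of the means, siNT-DMSO, siOCT4-DMSO and siNT-POVPC, overlapped with their neighbours.

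For Hoxb5 the siNT comparison, in which the tables do not list it, was a test whose miss was partly fixed beforehand. The difference with POVPC was 1.24 ± 0.56 (95% interval 0.02 to 2.47), which did not pass (adjusted p = 0.336), and 0.79 without siNT-DMSO replicate 2 or 0.34 with normexp. In that comparison limma called 0.00734% of all probes. In siOCT4 cells, the comparison that chose Hoxb5, the difference was 1.79 ± 0.56, or 3.46-fold, and it was 2.43 on slide 2 alone and 0.65 with normexp. Knockdown gave 0.60 in DMSO (−0.63 to 1.82). Without siOCT4-DMSO replicate 1 that value was 0.038, without siNT-DMSO replicate 2 it was 0.14, and without siOCT4-DMSO replicate 3 or with the slide as a block it was 0.92. With POVPC it gave 1.14 (−0.08 to 2.37) without overlap, on the siOCT4-POVPC arrays whose high level chose Hoxb5. This value was 0.61 without siNT-POVPC replicate 3, 0.74 with 75th percentile scaling, 0.46 with normexp and 2.10 with the slide as a block. Of all probes tested, 18.4% were higher without overlap in that comparison.

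Hoxb3, which codes for another homeodomain protein, stood highest in siOCT4-POVPC, and in siNT cells its mean was not higher with POVPC than with DMSO. The levels in siNT-DMSO were 12.20, 11.35 and 11.85 (11.80 ± 0.42), and those in siNT-POVPC were 11.33, 11.63 and 11.79 (11.58 ± 0.24). These groups overlapped. In siOCT4-DMSO the levels were 12.18, 12.15 and 11.52 (11.95 ± 0.38), and in siOCT4-POVPC they were 12.74, 12.76 and 12.70 (12.73 ± 0.03). The siOCT4-POVPC arrays differed from each other by less than those of any other group and stood above all 9 other arrays. Before normalization the processed signals were 6440, 6887 and 6623 in siOCT4-POVPC and 4983, 4450 and 3704 in siOCT4-DMSO. They were 3582, 3638 and 4338 in siNT-POVPC and 4178, 1922 and 2300 in siNT-DMSO. On that scale siOCT4-POVPC was again above all other arrays, whereas 2 of 3 siNT-DMSO arrays were below all siNT-POVPC arrays, so the order of the siNT groups differs from that of the normalized means.

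With POVPC, Hoxb3 was 1.15 ± 0.24 higher in siOCT4 than in siNT cells (95% interval 0.61 to 1.68, 2.21-fold). This is a description, since it uses the 3 siOCT4-POVPC arrays whose high level chose Hoxb3. Of all probes, 11.3% were called in that comparison in either direction and 7.18% were called higher. All siNT-POVPC arrays lay on slide 1 and all siOCT4-POVPC arrays on slide 2, so slide and knockdown can be told apart only through siOCT4-DMSO. There the array on slide 2 was the lowest of its group for Hoxb3, 11.52 against 12.18 and 12.15 on slide 1. With the slide as a block the difference was 1.80, a fit in which that array alone sets the slide's effect. With that single array, the part of the slide in the difference was not tested. Leaving out each array gave 1.02 to 1.25.

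The other differences of Hoxb3 were smaller. POVPC in siNT cells, tested where the tables do not list Hoxb3, gave −0.21 (−0.75 to 0.32, limma adjusted p = 0.7039). That value was −0.014 without siNT-DMSO replicate 1, −0.44 without replicate 2 of that group, −0.085 without siNT-POVPC replicate 1 and −0.072 with 75th percentile scaling. Knockdown in DMSO, where 6.6% of probes were called, gave 0.15 (−0.38 to 0.69). It was −0.070 without siNT-DMSO replicate 2 and 0.37 without siOCT4-DMSO replicate 3. The comparison that chose it, POVPC in siOCT4 cells, gave 0.78 ± 0.24, or 1.72-fold, and 1.22 on slide 2 alone. In that comparison limma called 0.00183% of all probes.

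**Figure D2:**
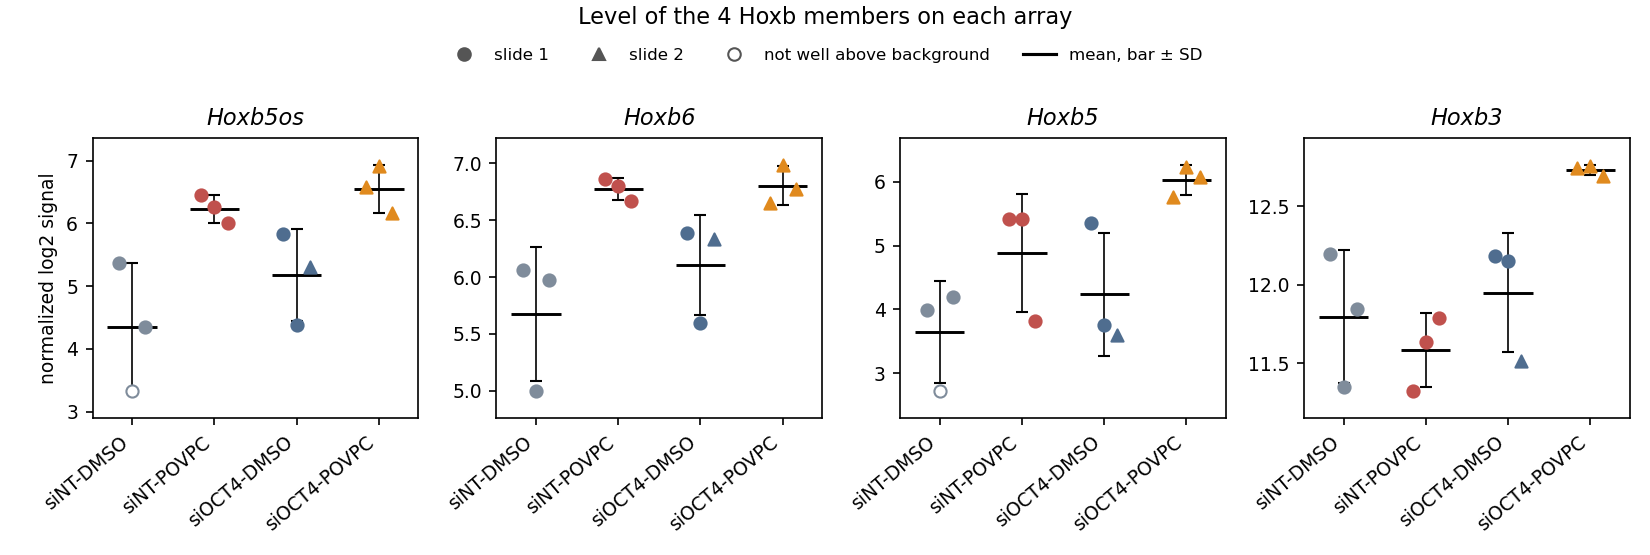
Normalized log2 signal (y axis) of each member by group (x axis), with a point for each array, the mean as a line and bars of ± SD (n = 3). Triangles are arrays of slide 2, and open points were not well above background. Hoxb5os and Hoxb6 are higher on all POVPC arrays than on the DMSO arrays of the same siRNA, and Hoxb3 is highest on the 3 siOCT4-POVPC arrays.

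Side by side, the effect of POVPC in siOCT4 cells minus that in siNT cells was −0.50 for Hoxb5os, −0.40 for Hoxb6, 0.55 for Hoxb5 and 0.99 for Hoxb3. The SE of these differences was 0.67, 0.41, 0.79 and 0.35. They are made of the comparisons that chose the members and are a description. Leaving out each array gave −1.01 to 0.0062 for Hoxb5os and −0.65 to −0.059 for Hoxb6, with the values nearest or past 0 found without siNT-DMSO replicate 2. It gave 0.014 to 1.104 for Hoxb5, the lowest without siNT-POVPC replicate 3 and the highest without siOCT4-DMSO replicate 1, and 0.78 to 1.22 for Hoxb3. With the slide as a block the value was 1.19 for Hoxb5 and −0.63 for Hoxb6, and with normexp it was −0.10 for Hoxb5os. Over all probes, limma called 0 in this interaction, with 4560 (8.37%) at an unadjusted p under 0.05.

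**Figure D3:**
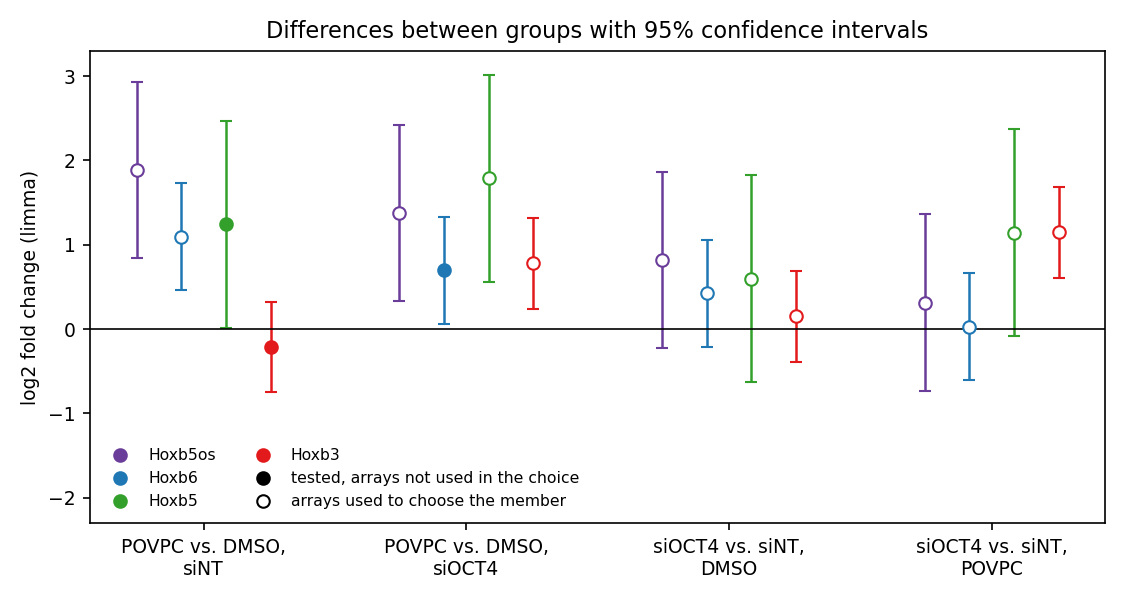
Log2 fold change from limma (y axis) of the 4 members in 4 comparisons (x axis), with bars for 95% confidence intervals. Filled points are tested differences in comparisons for which the study's tables do not list the member, and open points use arrays that chose it. The spread behind every interval is pooled over all groups. The tested differences were 0.70 for Hoxb6 in siOCT4 cells, and 1.24 for Hoxb5 and −0.21 for Hoxb3 in siNT cells, and the intervals of Hoxb5os, Hoxb6 and Hoxb5 include 0 in both knockdown comparisons.

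Hoxb5os and Hoxb6 varied together over the 12 arrays, with Pearson's r = 0.97 and Spearman's rho = 0.92. Hoxb5os and Hoxb5 had r = 0.85 and rho = 0.85, and Hoxb6 and Hoxb5 had r = 0.82 and rho = 0.79. Hoxb3 was less like the others, with r = 0.46 to Hoxb5os, 0.35 to Hoxb6 and 0.62 to Hoxb5. These values are a description without a p, since the arrays fall into groups and the choice of members fixes part of the likeness. Of the 54504 other probes tested, the one with the highest r to Hoxb6 was that of Hoxb5os. Hoxb6 ranked at position 2 among all probes by r to Hoxb5os. Whether a probe also takes up label from the opposite strand was not tested.

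**Figure D4:**
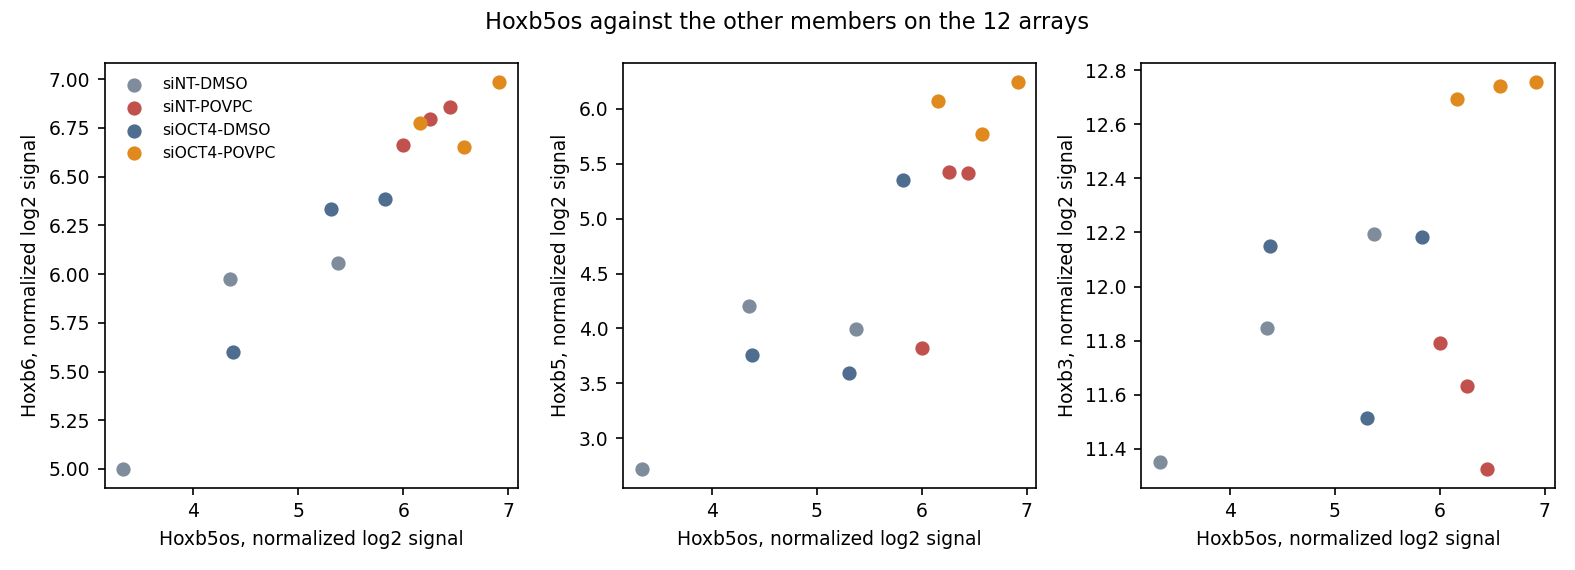
Normalized log2 signal of Hoxb5os (x axis) against Hoxb6, Hoxb5 and Hoxb3 (y axes), with a point for each of the 12 arrays coloured by group. The points of Hoxb6 follow Hoxb5os closely (r = 0.97), while those of Hoxb3 do so less (r = 0.46). The siOCT4-POVPC arrays are at the top for Hoxb3, and the other groups overlap in its level.

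Deviations from the group means showed how the members varied between samples treated alike. Their size enters the p-values by which the study listed the members, so they are not fully independent of the choice. The permutation p-values of the pairs rest on the same arrays and are given as a description. For Hoxb5os and Hoxb6 the deviations had r = 0.90 and lay on the same side of the group mean on 10 of 12 arrays. An exact permutation test within groups (1296 arrangements, two-sided) gave p = 0.00463, or 0.02778 after adjustment over the 6 pairs of members. Spearman's rho was 0.77 (exact permutation p = 0.02469, adjusted 0.1157). Without siNT-DMSO replicates 2 and 3, the arrays farthest from the median of Hoxb5os, r was 0.89. Without siOCT4-DMSO replicate 3, which leaves every group on a single slide, r was 0.91 and the adjusted exact permutation p was 0.0625. Leaving out each array in turn gave r between 0.81 and 0.95, and the adjusted p rose above 0.05 in 9 of 12 cases. Within groups, 0.246% of all probes had a higher r to Hoxb5os than Hoxb6 did, and 0.864% had a higher r to Hoxb6 than Hoxb5os did.

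The other 5 pairs had lower r, and their permutation p-values are likewise a description. Hoxb6 and Hoxb5 had r = 0.66 (exact permutation p = 0.04012, adjusted 0.1204; rho = 0.66, p = 0.03858, adjusted 0.1157), and r = 0.55 without siNT-DMSO replicate 2 and siOCT4-DMSO replicate 2. Hoxb5os and Hoxb5 had r = 0.65 (exact permutation p = 0.08642, adjusted 0.1728; rho = 0.55, p = 0.1427, adjusted 0.2855), and 0.62 without siNT-DMSO replicates 2 and 3. The pairs with Hoxb3 had r = 0.44 with Hoxb5os, 0.31 with Hoxb6 and 0.36 with Hoxb5, and the smallest adjusted exact permutation p among them was 0.4954. Their rho was 0.35, 0.37 and 0.35, with adjusted exact permutation p = 0.419. Without the 2 arrays farthest from the median these r were −0.19, −0.04 and 0.06, so the relations of Hoxb3 did not hold there. Without siNT-DMSO replicate 2 alone they were 0.037, −0.34 and 0.062.

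Several samples stood apart for more than a single member. In siNT-DMSO replicate 1 all 4 members were above their group means, by 1.02 for Hoxb5os, 0.38 for Hoxb6, 0.36 for Hoxb5 and 0.40 for Hoxb3. In siOCT4-DMSO replicate 1 all 4 were above as well, by 0.65, 0.28, 1.12 and 0.23 in the same order. Replicate 2 of both DMSO groups was low for Hoxb5os, Hoxb6 and Hoxb5. In siNT-DMSO replicate 2, the deviation from the group mean was −1.02 for Hoxb5os, −0.68 for Hoxb6, −0.92 for Hoxb5 and −0.45 for Hoxb3. In siOCT4-DMSO replicate 2, it was −0.79 for Hoxb5os, −0.51 for Hoxb6 and −0.48 for Hoxb5, whereas Hoxb3 was above its mean (0.20). Probes as bright as Hoxb5os (8904 within 0.5 of its mean level) had a median deviation of 0.03 and 0.04 on these arrays, which quantile normalization holds near 0, so the part of the array as a whole in these low values was not tested. In siNT-POVPC replicate 3, Hoxb5 deviated by −1.07 and Hoxb6 by −0.11, while Hoxb3 was above its mean (0.21).

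**Figure D5:**
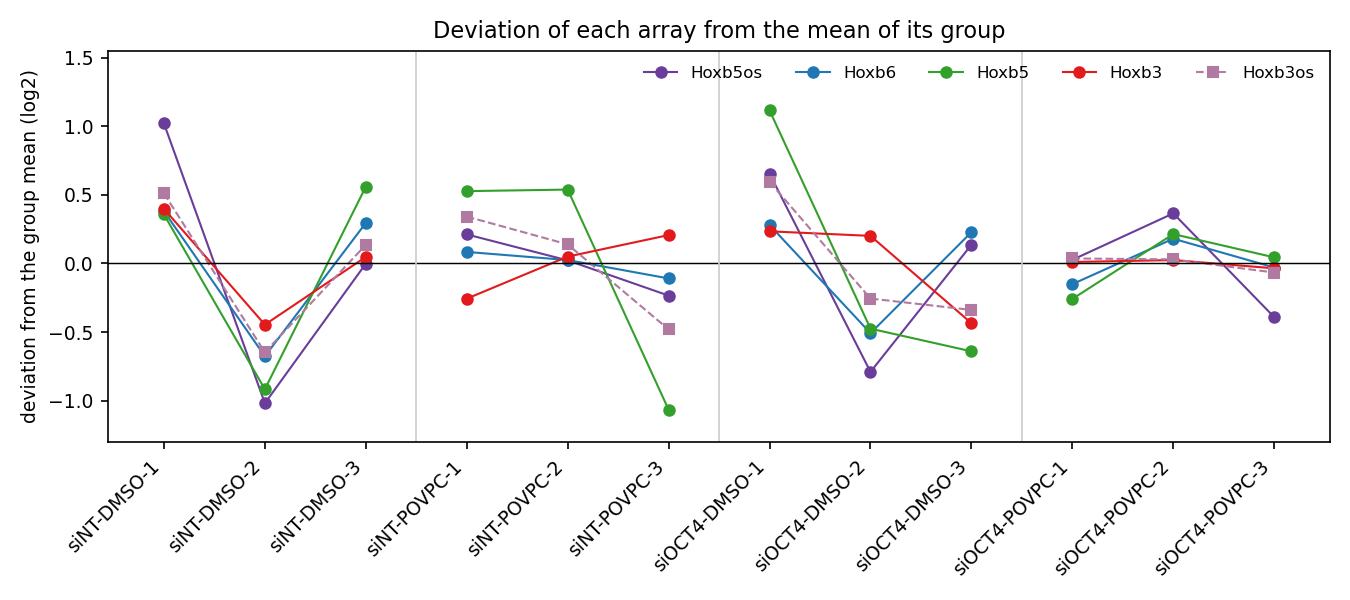
Deviation from the group mean on the log2 scale (y axis) of the members and of Hoxb3os (dashed) on each array (x axis). Lines join arrays of a group. In siNT-DMSO replicate 2 all 5 transcripts lie below their group mean, and in siOCT4-POVPC the deviations of Hoxb3 stay within 0.04 of 0.

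Hoxb3os, the antisense lncRNA that covers Hoxb3, followed Hoxb5 and Hoxb5os more closely than Hoxb3. Its levels in siNT-DMSO were 4.67, 3.51 and 4.30, and those in siNT-POVPC were 5.87, 5.66 and 5.04. In siOCT4-DMSO they were 5.29, 4.44 and 4.36, and in siOCT4-POVPC they were 6.09, 6.09 and 5.99. POVPC arrays stood above the DMSO arrays of the same siRNA throughout. The difference with POVPC was 1.36 ± 0.33 in siNT and 1.36 ± 0.33 in siOCT4 cells, and the study's tables list it for both, so these differences are a description. The differences between siOCT4 and siNT cells, on the same arrays and so also a description, were 0.54 in DMSO and 0.53 with POVPC. Over the 12 arrays its r was 0.95 to Hoxb5, 0.94 to Hoxb5os, 0.90 to Hoxb6 and 0.56 to Hoxb3, with which it shares all 2739 bases of the Hoxb3 transcript's span.

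Among the 1155 probes that the study's tables pair with a gene, those most like each member were found by Pearson's r over the 12 arrays. For Hoxb5os they were Hoxb6 (0.97), a lncRNA probe of Fbxw5 (0.96) and Ctsa (0.95), which codes for the lysosomal protease cathepsin A. For Hoxb6 they were Edem2 (0.95), which acts in the disposal of misfolded glycoproteins, Cops7a (0.95), a subunit of the COP9 signalosome, and a lncRNA probe of Edem2 (0.94). For Hoxb5 they were Hoxb3os (0.95), the glycolytic enzyme gene Pfkm (0.95) and the growth factor gene Vegfd (0.94). For Hoxb3 they were Mybpc2 (0.79), a myosin-binding protein of fast skeletal muscle, the kinase gene Hunk (0.78) and Reep6 (0.77). The tables hold mostly probes chosen for a change with POVPC in siNT cells, which limits what these names can show.

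Hox proteins bind DNA together with cofactors of the PBX and MEIS families, and 3 of 9 listed cofactors had a named probe. Pbx3 had levels of 10.47 ± 0.42 in siNT-DMSO and 9.0 ± 0.31 in siNT-POVPC, and 9.93 ± 1.00 in siOCT4-DMSO and 8.64 ± 0.03 in siOCT4-POVPC. Its POVPC arrays lay below the DMSO arrays of the same siRNA, opposite to Hoxb5os and Hoxb6. Lower without overlap were 10.4% of all probes in the siNT comparison and 12.3% in the siOCT4 comparison. The probes named for Meis1 and Meis2 are lncRNA probes, and both were higher with POVPC in siNT cells, by 1.02 and 1.03. The tables chose these probes for that change. In siOCT4 cells the Meis1 lncRNA probe was 0.38 higher with POVPC, with overlapping groups, and the Meis2 lncRNA probe was 0.65 higher without overlap. The knockdown comparison in DMSO uses the same siNT-DMSO arrays, and that with POVPC the same siNT-POVPC arrays, so the differences between siOCT4 and siNT cells are given as a description. In DMSO they were −0.54 for Pbx3, 0.20 for the Meis1 lncRNA probe and 0.77 for the Meis2 lncRNA probe. With POVPC they were −0.36, −0.44 and 0.39 in the same order.

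The cell type markers with a named probe were Tagln, Smtn and Pdgfra. Tagln had levels of 5.41 ± 0.16, 4.52 ± 0.25, 4.61 ± 0.23 and 4.17 ± 0.21 in siNT-DMSO, then siNT-POVPC, siOCT4-DMSO and last siOCT4-POVPC. Its difference between siOCT4 and siNT cells in DMSO was −0.79. The tables that name these 3 probes hold mostly probes chosen for a change with POVPC in siNT cells, and both siNT groups enter that choice, so differences against them are a description. Smtn had levels of 5.33 ± 0.23, 4.60 ± 0.18, 4.78 ± 0.40 and 4.99 ± 0.27 in the same order. Pdgfra, a receptor that marks fibroblasts and mesenchymal cells and the single named probe of 5 listed fibroblast markers, had levels of 3.56 ± 0.47, 2.73 ± 0.04, 4.25 ± 0.35 and 4.46 ± 0.18. It was well above background on 2 arrays in siNT-DMSO, 1 in siNT-POVPC and 3 in each siOCT4 group. With POVPC its levels were thus higher in siOCT4 than in siNT cells, as those of Hoxb3 were, with most siNT-POVPC arrays too dim to give a size. That comparison runs wholly between slides, and 18.4% of all probes were higher in it without overlap. In DMSO, Pdgfra was 0.70 higher in siOCT4 cells without overlap, as 10.2% of all probes were, whereas Hoxb3 was 0.15 higher with overlap. No probe was named for the 6 endothelial or the 6 macrophage markers listed. The part of these markers in the levels of the Hoxb transcripts was not tested.

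No named probe was found for any of the 16 Hoxa, 10 Hoxc and 11 Hoxd genes and lncRNAs listed, for 11 regulators of Hox loci, 18 genes of the retinoic acid pathway or 7 genes next to the Hoxb cluster. Of 12 genes listed for the Hoxb cluster, the tables pair Hoxb6 and Hoxb3os with a probe directly.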

How the data were processed

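For each array the authors deposited a scanner table (Agilent Feature Extraction 11.0.1.1), whose processed signal is an intensity after background subtraction, together with a series table of log2 values, quantile normalized according to the methods. The table's columns have a median of 6.37 and correlated with the log2 processed signal at r of 0.997 or more. Here 80 outlier spots were left out, signals were floored at 5, and log2 values were quantile normalized. Probes that 3 or more of 12 arrays showed well above background, with a value in each group, were fitted with limma 3.58.1 (lmFit, eBayes) in R 4.3.3. All 4 groups entered the fit and share its estimate of the spread, without a block. A call has a Benjamini-Hochberg adjusted p under 0.05 and a fold of at least 1.5 (no fold limit for the interaction). Knockdown comparisons were fitted as tests, but p-values of differences are given only for comparisons in which the study's tables do not list the member. In the methods' unadjusted t-test on the same arrays the member missed 0.05 there, so a miss in these tests was partly fixed beforehand. The spread in these tests is still pooled over all 12 arrays, including those that chose the member. The fit was tested on simulated data. Members, lists and tests were chosen with earlier results of these data known. Named genes are the members, Hoxb3os, genes of the lists with a probe named by the study's tables, and the 3 named probes most like each member. The tables pair Hoxb6 and Hoxb3os with probes. For Hoxb5os, Hoxb5 and Hoxb3, a single probe returned the tables' statistics within a relative tolerance of 0.0001. The tables' p-values and fold changes were used for that match alone. Of 827 named mRNAs, 826 overlap the RefSeq gene of the same symbol on GRCm38.p6, while the scanner headers name an older build. Permutation tests used Python 3.11.15. Other scalings, filters, tests, blocks and subsets of arrays were run as alternatives.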

Additional observations from a re-analysis of the deposited data

How the results depend on the processing

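Of the 470 alternative values of the members' differences, 457 stayed on their side of the threshold or within the spread, and 5 reversed, besides the interaction of Hoxb5os, which was 0.0062 without siNT-DMSO replicate 2, within the spread. Hoxb6 between siOCT4 and siNT cells with POVPC reversed to −0.082 with 75th percentile scaling, −0.31 with the slide as a block, −0.02 without siNT-POVPC replicate 3 and −0.059 without siOCT4-POVPC replicate 2 (−0.059 to 0.11 leaving out each array). Hoxb3 between siOCT4 and siNT cells in DMSO reversed to −0.070 without siNT-DMSO replicate 2 (−0.070 to 0.37). With POVPC, that difference of Hoxb3 was 1.02 to 1.25 leaving out each array and 1.80 with the slide as a block. Normexp gave POVPC differences of 0.72 (Hoxb5os) and 0.61 (Hoxb6) in siNT cells, and 0.62 (Hoxb5os) and 0.65 (Hoxb5) in siOCT4 cells. With 75th percentile scaling, the knockdown differences in DMSO were 0.44 (Hoxb5os), 0.17 (Hoxb6), 0.23 (Hoxb5) and 0.31 (Hoxb3). Without it they were 0.82, 0.43, 0.60 and 0.15 in the same order. The POVPC difference of Hoxb3 in siOCT4 cells was 1.22 with the slide as a block and on slide 2 alone, a subset added after seeing the data, and its interaction was 1.43 with that block.

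Within groups, r of Hoxb5os and Hoxb6 was 0.87 with 75th percentile scaling (adjusted exact permutation p = 0.1528, a description). That r was 0.89 without the 2 farthest arrays and 0.81 to 0.95 leaving out each array. Without the 2 farthest arrays r was −0.19 for Hoxb5os and Hoxb3 and −0.037 for Hoxb6 and Hoxb3, and the latter was −0.34 without siNT-DMSO replicate 2 (−0.34 to 0.62). Fewer arrays leave fewer arrangements to permute, and causes of these differences between settings were not tested.

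Counts of probes called moved more. For POVPC in siNT cells (main count 4) they were 37 with normexp, 7 with a floor of 20, 0 with only the groups compared, 2416 and 0 by the methods' t-test before and after adjustment, 25 with the slide as a block, 0 on slide 1 alone and 0 to 504 leaving out each array. For POVPC in siOCT4 cells (main count 1) they were 20 with 75th percentile scaling, 0 with normexp, 6 with a floor of 20, 2 without a filter, 0 with probes above background on all 12 arrays, 0 with only the groups compared, 0 with trend and robust settings, 2989 and 3 by the methods' t-test, 5105 with the slide as a block, 15332 on slide 2 alone and 0 to 12 leaving out each array. For siOCT4 against siNT in DMSO (main count 3597) they were 777 with only the groups compared, 72 by the adjusted t-test, 5976 with the slide as a block and 1737 to 5976 leaving out each array. With POVPC (main count 6137) they were 11917 with 75th percentile scaling, 3304 with normexp, 10114 by the unadjusted t-test, 9773 with the slide as a block and 2919 to 8374 leaving out each array. The interaction had 2374 calls with the slide as a block. The slide block rests on siOCT4-DMSO replicate 3 alone. The 75th percentile scaling moved the median of all probes to −0.21 and −0.27 in the knockdown comparisons in DMSO and POVPC, from −0.06 and −0.08.

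Whether replicate numbers pair the samples was not settled, since differently numbered samples were not compared. Same-numbered samples had correlations of their deviations from −0.20 to 0.36, and 3 of 18 were over 0.1. The highest, 0.36, was between replicates 2 of siNT-DMSO and siOCT4-DMSO, and replicates 1 of these groups had 0.15. With the replicate block, 20 of 20 member values kept their direction and side, and the counts of calls were 1 and 0 for POVPC in siNT and siOCT4 cells, 3009 and 5585 for the knockdown in DMSO and POVPC, and 0 for the interaction. Low signal limits Hoxb5os and Hoxb5, each not well above background on an siNT-DMSO array.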
